A study of Mus musculus with 34 samples.

Results

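Small nucleolar RNA (snoRNA) and small Cajal body RNA (scaRNA) genes were examined across the ways of preparing an RNA-seq library. The genes were all those in the deposited gene table whose mouse symbol begins with Snord, Snora or Scarna, 134 of 51368 genes. Of these, 84 were box C/D snoRNAs (Snord), 41 were box H/ACA snoRNAs (Snora) and 9 were scaRNAs (Scarna).

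The study prepared 33 libraries from the liver RNA and 1 from the heart of a single wild-type C57BL/6J mouse, 12 weeks old, with conflicting entries for its sex in the labels (female, male). There were 9 polyA-selected libraries (TruSeq Stranded mRNA kit), 9 libraries from rRNA pull-down (TruSeq Stranded Total RNA kit) and 9 from rRNA digestion (Ribo-Zero Plus in the Illumina Stranded Total RNA kit, which adds adapters by ligation). Within each method, every combination of slow, medium or fast PCR ramp rate with short, medium or long fragments was prepared once, from 200 ng of RNA. Unselected libraries kept their rRNA and were made from 20 ng with a slow ramp and medium fragments: 3 from liver in batch 1, 3 from liver in batch 2 and 1 from heart in batch 1. The polyA libraries all belong to batch 1, and both rRNA removal methods to batch 2. All libraries carried unique molecular identifiers and went through 13 PCR cycles. Every library is a technical preparation of the RNA of 1 animal, so p-values measure the spread between preparations, not between animals. Kit and method cannot be told apart, nor can input amount and the absence of selection.

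Box C/D snoRNAs guide ribose methylation of ribosomal RNA, with fibrillarin as the methyltransferase, and box H/ACA snoRNAs guide pseudouridylation, with dyskerin as the synthase. A few members of both classes act instead in the cleavage of the ribosomal RNA precursor. scaRNAs carry the same boxes, reside in Cajal bodies and guide modification of spliceosomal RNAs. Most mammalian members are excised from introns of ribosomal protein genes and other host genes and carry no poly(A) tail, so a library built on poly(A) capture has no direct handle on the mature RNA.

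The symbols were checked against the boxes that define each class, in the GENCODE M21 transcripts (GRCm38). The letters TGATGA within the first 20 bases (box C) were present in 55 of 84 Snord genes (65.5%), against 0.729% of 18942 other annotated transcripts. These 18942 are of the same length range and leave out all transcripts typed as snoRNA or scaRNA. CTGA within the last 12 bases (box D) was present in 71 of 84 (84.5%, against 6.22%), and both boxes in 50 of 84 (59.5%, against 0.0475%). ACA within the last 8 bases was present in 39 of 41 Snora genes (95.1%, against 9.97%). Of the 9 Scarna genes, 4 held both C/D boxes and 4 ended in ACA. Only the transcript strand was searched, and the end windows for CTGA and ACA overlap each other. 3 C/D transcripts are given as examples. The first and second were among the most counted, and the last had no count in any library. Snord17 lies in the gene Snx5 and outside exons of other genes (chr2:144265979-144266216, minus strand). Snord15b lies in Rps3 and overlaps an exon of another gene (chr7:99479563-99479707, minus strand), and Snord32a lies in Rpl13a outside exons of other genes (chr7:45127382-45127464, minus strand). Capitals mark boxes C and D.
Snord17: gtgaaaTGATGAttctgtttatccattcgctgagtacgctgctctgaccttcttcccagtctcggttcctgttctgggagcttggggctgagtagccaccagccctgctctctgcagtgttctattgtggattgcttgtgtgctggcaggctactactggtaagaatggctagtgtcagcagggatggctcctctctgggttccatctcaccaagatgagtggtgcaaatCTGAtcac
Snord15b: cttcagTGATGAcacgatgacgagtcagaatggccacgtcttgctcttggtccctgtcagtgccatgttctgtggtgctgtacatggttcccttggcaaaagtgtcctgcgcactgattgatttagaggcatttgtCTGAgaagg
Snord32a: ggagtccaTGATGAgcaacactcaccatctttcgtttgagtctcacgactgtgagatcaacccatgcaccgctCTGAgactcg

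Total counts were 19.9 to 41.4 M in 33 of the 34 libraries, and 1.13 M in the slow-ramp, long-fragment library of the pull-down. Nuclear and mitochondrial rRNA genes together with Lars2 held 84.8% to 85.7% of the counts in the unselected liver libraries and 80.6% in the heart library. They held 14.2% to 24.5% after pull-down, 0.363% to 1.12% after digestion and 0.214% to 0.406% after polyA selection. Summed hepatocyte markers (8 genes, CPM, counts per 1 M, outside those rRNA genes) were 83572 to 111971 in the liver libraries and 367 in the heart library. Summed cardiomyocyte markers (8 genes) were at most 2.65 in the liver libraries and 104494 in the heart library, so the tissue labels held. Below, normalised CPM means CPM of a library total rescaled by the trimmed mean of M-values, computed for all 33 liver libraries together unless another set is named.

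The annotated length of a member separated those with counts from those without. All 74 members shorter than 100 bases had 0 counts in all 34 libraries, among them 72 of the 84 C/D genes. A count of 0 over the 902 M counts of all libraries allows up to 0.00333 CPM, and within the smallest library up to 2.66. Of the 7 members of 100 to 119 bases, 5 had any count and 2 had 10 or more. Of the 43 members of 120 to 149 bases, 39 had any count and 32 had 10 or more. All 10 members of 150 bases or longer had counts, from 6 for Snora81 to 30571 for Snora73a. The shortest member with any count was Snord13 (104 bases, 2 counts), which guides acetylation of ribosomal RNA, and the longest with none was one of the 2 Snora16a entries (137 bases).

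The same edge ran through the whole table. None of the 2201 genes shorter than 100 bases had a count in any library, and the shortest gene with any count was Gm24135, annotated at 101 bases. The shortest with 10 or more was the Y RNA gene Rny3 (102 bases, 148 counts). Among genes of 120 to 149 bases, 100 of 1468 that were not members had 10 or more counts, against the 32 of 43 members. In sum, 80 members had no count at all (74 C/D, 4 H/ACA and 2 scaRNA), 11 had 1 to 9 counts summed over 34 libraries, and 43 had 10 or more. For C/D snoRNAs, the tests below cover 5 of 84 genes, all of 126 bases or longer. What removed the short ones, in the preparation or in the counting, was not tested.

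**Figure D1:**
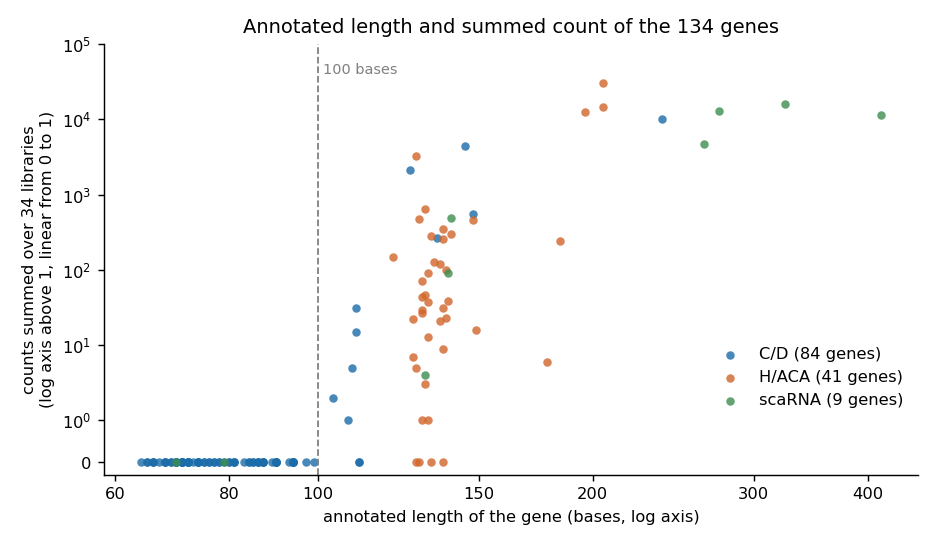
Each point is 1 of the 134 snoRNA and scaRNA genes, with its annotated length in bases on the x axis (log) and its counts summed over 34 libraries on the y axis (log above 1), coloured by class. All 74 genes left of the dashed line at 100 bases sit at 0, and all 10 genes of 150 bases or longer lie above 0.

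Members that share a host gene were often all below the edge. The 4 snoRNAs in introns of Rpl13a (Snord32a, Snord33, Snord34 and Snord35a), of which several have been tied to lipid stress in other systems, were all at 0, as were all 4 genes found for 3 of the 10 listed symbols of snoRNAs in introns of Gas5, a non-coding host gene. Of the Snhg1 intron snoRNAs, only Snord22 (126 bases) was among the members, with 2089 counts. Of 10 listed genes with a part in processing of the ribosomal RNA precursor, 9 were among the members (Snord3a was not analysed here). The 4 Snord14 genes were at 0 and Snord13 had 2 counts. Snord118 (135 bases, 263 counts), Snord22, Snora73a and Snora73b were measured. A total of 26 members passed the filter on low counts: 5 C/D, 15 H/ACA and 6 scaRNA. A gene could pass it through the method in which it was high, so these 26 stand for neither class as a whole.

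Per kilobase of gene length, Snora73b was the highest member in unselected liver, at 111 ± 18.3 normalised CPM per kb (SD, n = 6 libraries). Snora73b and Snora73a (73.2 ± 14.6) are near copies that act in early cleavage of the ribosomal RNA precursor. Snord17 (92.6 ± 27.1 normalised CPM per kb) stood between them as the highest C/D member. Scarna13 (54.3 ± 6.12), Snord15b (49.3 ± 10.9), Scarna2 (47.5 ± 6.66), Scarna10 (45.5 ± 5.49), Snord22 (39.6 ± 12.5), Snora74a (31.8 ± 5.82), Scarna6 (28.8 ± 5.08) and Snora78 (15.7 ± 5.82) followed. The ranges over the 6 libraries of each neighbouring pair in this order overlapped. Lower still, Snora44 was at 8.93 normalised CPM per kb, Snora57 at 6.19, Snord15a at 4.02, Snord118 at 3.65 and Snord8 at 1.28. In normalised CPM without regard to length, Snord17 was at 27.8, 28.9 and 26.9 in the batch 1 libraries and at 16.7, 15.6 and 16.1 in the batch 2 libraries. The batches did not overlap, and Snord17 was the only member of 11 tested that differed between them (log2 difference of batch 2 from batch 1 of -0.77 ± 0.12, SE, adjusted p = 0.00034, edgeR quasi-likelihood test). The background in that comparison was 0.15% of 10642 genes lower and 0.216% higher, 0.366% in all.

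Each class was concentrated in few genes. Snord17 held 64.0% of the C/D counts in unselected batch 1, Snord15b 18.8% and Snord22 14.1%. Snora73b held 42.3% of the H/ACA counts there and Snora73a 29.6%, and Scarna2 held 32.1% of the scaRNA counts. After pull-down the leading H/ACA gene was Snora73a, with 52.2% of the class, while after digestion it was Snora74a, with 41%.

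In share of all counts, the classes moved by different amounts between the methods. C/D genes held 0.00579% ± 0.00528 of the counts after pull-down (SD, n = 9) and 0.00269% ± 0.000211 after digestion, against 0.000648% ± 2.74e-05 in the unselected batch 2 libraries (n = 3). H/ACA genes held 0.0225% ± 0.00736 after pull-down, 0.00365% ± 0.000397 after digestion and 0.0011% ± 0.000158 in the unselected libraries. scaRNA genes held 0.0132% ± 0.00428, 0.00516% ± 0.000286 and 0.00133% ± 7.31e-05. The ratio of pull-down to digestion was thus 6.16 for H/ACA, 2.55 for scaRNA and 2.15 for C/D genes. Over the 9 pairs matched for ramp rate and fragment length, that ratio ranged from 4.18 to 12.8 for H/ACA, from 1.91 to 4.09 for scaRNA and from 1.07 to 7.45 for C/D genes, so the C/D range overlapped both others, while those of H/ACA and scaRNA genes did not overlap each other.

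The highest C/D ratio came from the pull-down library of 1.13 M counts, whose 219 C/D counts included 150 of Snord15b. Without that pair the C/D ratio was 1.51. With only members that share no exon with another gene, the ratios were 4.78 for H/ACA, 1.44 for scaRNA and 1.29 for C/D genes. rRNA genes and Lars2 took far more of the counts in the unselected libraries than elsewhere, which lowers every other share there. In percent of the counts outside them, C/D genes were at 0.00431% in unselected batch 2, 0.00736% after pull-down and 0.0027% after digestion. H/ACA genes were at 0.0073%, 0.0281% and 0.00367%, and scaRNA genes at 0.00882%, 0.0165% and 0.00519%. On that scale all 3 classes were lower after digestion than in the unselected libraries, the reverse of the order in shares of all counts.

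**Figure D2:**
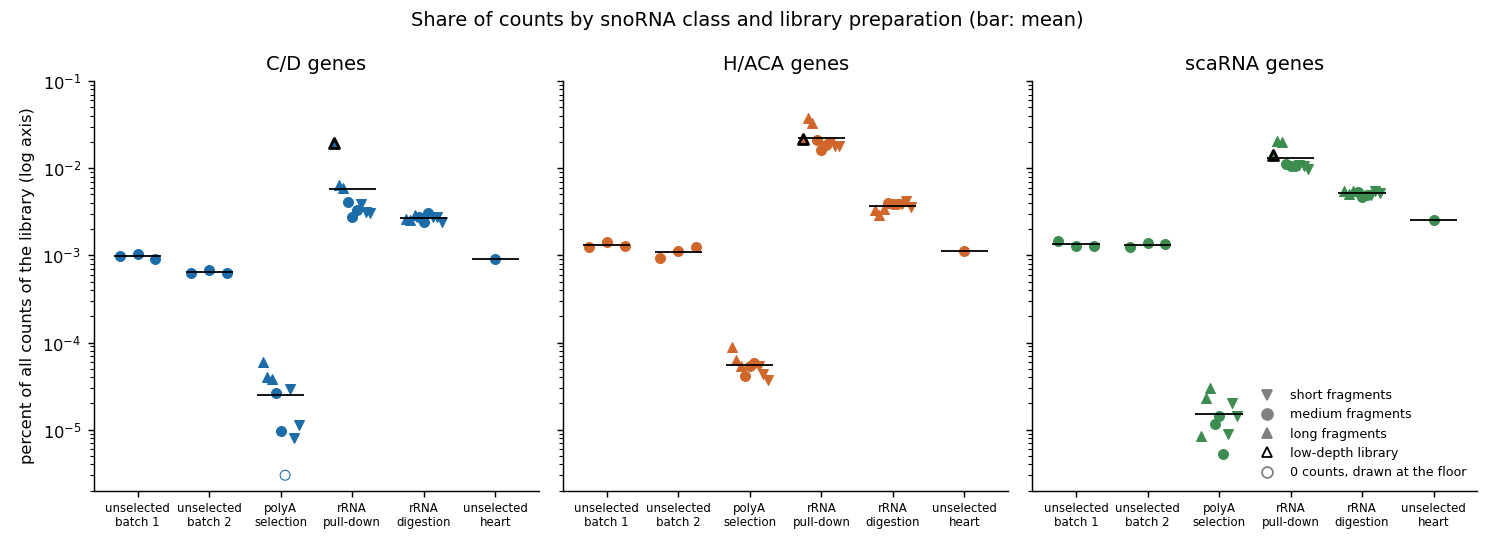
Percent of all counts (y axis, log) held by C/D, H/ACA and scaRNA genes in each of the 34 libraries, by preparation. Triangles and circles give the fragment length, horizontal bars the mean, and a black outline the pull-down library of 1.13 M counts. H/ACA genes range from 0.016% to 0.0372% after pull-down and from 0.00291% to 0.00415% after digestion, without overlap.

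PolyA selection left almost nothing of the members. Of 26 tested, 25 were lower than in the unselected libraries of the same batch and none was higher (adjusted p under 0.05, edgeR quasi-likelihood test), against a background of 24.8% of 15422 genes lower and 50.4% called in either direction. The median log2 difference was -7.31 over the 26 members and 0.04 over all genes tested. Over 9 polyA libraries, 8 members had 0 counts in all, 7 had 1 to 3 counts and 11 had more. Scarna10, which guides modification of spliceosomal RNA, was at 16.9, 16.2 and 15.7 normalised CPM in the unselected libraries and had 1 count in 9 polyA libraries. Snora44 was at 1.26 ± 0.526 (SD, n = 3) in the unselected libraries and at 0 in the polyA libraries, at least 170-fold lower against a floor of 3 counts over the group. Snord17 was 0 to 0.0945 after polyA selection, a log2 difference of -9.95 ± 0.36 (adjusted p = 5.6e-20). The member that missed the threshold, Snora21, had 1 count in the 3 unselected libraries together. The call of Snora7a rests on 2 counts in unselected library 2, and without that library its log2 difference was 0.0745.

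The genes that host the tested members behaved otherwise in the same comparison. Of 22 host genes tested, 8 were higher after polyA selection and none was lower, with a median log2 difference of 0.34, against a background of 25.6% of all genes higher. Snhg3, which hosts Snora73a and Snora73b, was at 0.30 (adjusted p = 0.63) while Snora73b fell by 7.64 and Snora73a by 7.67 on the log2 scale. Rps3, the host of Snord15b, was at 0.89 (adjusted p = 3.4e-12) while Snord15b fell by 6.67. The members and the transcripts that host them thus moved apart. Of 6 structured RNAs without a tail that are not members, 5 were lower (median -11.16, beside 24.8% of all genes lower), among them Rn7sk, an inhibitor of transcription elongation, at a log2 difference of -12.09. The 8 core proteins of both snoRNP classes include 5 that were higher after polyA selection and none that was lower, beside the same background.

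Pull-down raised 9 of 26 members above the unselected libraries of its batch and lowered none, against a background of 17.5% of genes higher. The 9 were 6 of 15 H/ACA, 3 of 6 scaRNA and 0 of 5 C/D genes. The median log2 differences were 1.30, 1.17 and 0.90, so the few C/D genes also tended upward without a call. The call of Scarna3b rests on 0 counts in the unselected batch 2 libraries, a floor against which pull-down is at least 1.23-fold higher, while the unselected batch 1 libraries had a mean of 0.277 normalised CPM and pull-down 0.256. Snora74a was at 6.91, 4.38 and 5.87 normalised CPM without selection and at 27.3 to 39.7 (median 32.4) after pull-down, with no overlap (log2 difference 2.62 ± 0.22, adjusted p = 7.6e-11). Snora73a was at 9.84, 14.0 and 14.5 without selection and at 61.3 to 190.0 (median 79.3) after pull-down (2.72 ± 0.32, adjusted p = 4.8e-08). Snora68 had the largest difference among called members with a mean of at least 10 counts over the 33 libraries, 3.67 ± 1.04 (adjusted p = 0.0085), from 2 counts in 3 unselected libraries. Its mean was 0.497 normalised CPM in the unselected batch 1 libraries and 2.20 after pull-down. In 7 members every pull-down library lay above every unselected one, a separation that was not counted over all genes. Snora73b, at 0.80 ± 0.31 (adjusted p = 0.047), lost its call without the low-depth pull-down library (0.71, adjusted p = 0.065) and without unselected library 1 (adjusted p = 0.15) or 2 (adjusted p = 0.14). Without unselected library 1 or 2, 6 members were called in place of 9. Snord17 was at 0.19 ± 0.23 (adjusted p = 0.58). In the same comparison 6 of 8 hepatocyte markers were higher and none lower (median log2 difference 0.35). Of 8 markers of other cells (blood, immune, endothelial and stromal genes), 5 were higher and 1 lower (median 0.39). The background was 17.5% of all genes higher and 15.3% lower, and the part of these markers in the result was not tested.

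Digestion went the other way. Of 26 members, 12 were lower than without selection (1 C/D, 8 H/ACA and 3 scaRNA) and 1, Snora74a, was higher, against backgrounds of 7.66% of genes lower and 7.06% higher. Snora78 was at 1.46, 2.92 and 0.838 normalised CPM without selection and at 0.0226 to 0.126 (median 0.0599) after digestion, a log2 difference of -4.84 ± 0.78 (adjusted p = 4.1e-05). Scarna3a was at 0.209 to 0.838 without selection and at 0 to 0.0624 after digestion (-4.41 ± 0.85, adjusted p = 0.00044). Snora7a had 10 counts in 3 unselected libraries and 0 in 9 digestion libraries, at least 88.2-fold lower against 3 counts over the group. Scarna13 went from 12.2 to 17.1 down to 1.98 to 4.82 (-2.69 ± 0.17, adjusted p = 4.1e-13). In 13 of the 26 members every digestion library lay below every unselected one, and in none did every one lie above. The share of all genes with such a separation was not counted. Of 8 markers of other cells, 4 were lower after digestion and none higher (median -0.30), beside the same backgrounds. Of 8 hepatocyte markers, 1 was lower and 1 higher (median -0.16). The part of these markers in the result was not tested.

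Comparisons with the unselected libraries turn on the scaling. With library totals in place of the rescaled totals, the median gene was 2.31 higher after pull-down and 2.85 higher after digestion (log2), and 95.2% and 98.2% of all genes were called. On that scale all 26 members were higher after pull-down, and after digestion 13 were higher and 4 lower in place of 1 and 12. The directions given for these comparisons are thus relative to the bulk of the other genes. Without any 1 of the 3 unselected batch 2 libraries, 9 to 10 members were called after digestion in place of 13. The call of Snora74a was lost when any of the 3 unselected batch 2 libraries was left out (adjusted p of 0.055, 0.24 and 0.11).

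The rRNA removal methods were then compared with each other. All 26 members tested were lower after digestion than after pull-down, against a background of 36% of 15422 genes lower and 34.7% higher (edgeR quasi-likelihood test, adjusted p under 0.05). The median log2 difference was -3.82 for the 15 H/ACA, -2.86 for the 6 scaRNA and -1.89 for the 5 C/D genes, and -0.01 for all genes tested. Snora7a, Snora5c and Snora64, all H/ACA, had few or no counts after digestion and passed the filter on low counts through pull-down. The filter thus in part fixes the count of 26 and the order of these medians. In 15 members every pull-down library lay above every digestion library, and in the same number the pull-down library was the higher one in all 9 matched pairs. This was not counted over all genes, so no background stands beside it. Markers of other cells (blood, immune, endothelial and stromal genes) moved with this contrast: 7 of 8 were lower and 1 higher after digestion (median -0.76), with summed CPM outside rRNA genes of 641 to 815 after pull-down and 271 to 291 after digestion. Of the 8 hepatocyte markers, 7 were lower and none higher (median -0.42). Their part in the result was not tested. With library totals, the median gene was 0.55 higher after digestion (log2) and 81.9% of all genes were called. On that scale 22 members were lower and none higher, while Snord17, Snord118, Scarna2 and Snora23 no longer passed the threshold.

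The size of the difference was far from even within a class. Snora78 showed the largest among members with more than 3 counts after digestion, at 0 to 21.0 normalised CPM after pull-down (median 9.53) and a mean after digestion of 0.695% of the pull-down mean (log2 difference -7.32 ± 0.24, adjusted p = 6.2e-22). Its 0 was the low-depth library, and the other 8 pull-down libraries were at 8.11 or more. Scarna3a followed at 2.03% of the pull-down mean (-5.80 ± 0.29, adjusted p = 2.4e-17). Snora7a had 283 counts after pull-down and 0 after digestion, at least 154-fold lower. At the other end by percent of the pull-down mean stood Snord118, which acts in maturation of the large subunit rRNA, at 68.6% (-0.66 ± 0.19, adjusted p = 0.0029). On the log2 scale Scarna2 had the smallest difference, -0.64. Snora23 was at 63.3%, Scarna2 at 60.2% and Snord17 at 58.4% (-0.76 ± 0.10, adjusted p = 1.3e-07).

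The sequences of 3 members from these ends are given so that they can be compared. Snora78 (128 bases, 64.1% G and C, chr17:24719676-24719803, minus strand) lies in Snhg9 and Scarna3a (140 bases, 48.6% G and C, chr1:159340283-159340422, plus strand) lies in Cop1 and overlaps an exon of another gene. Both end in the ACA box, in capitals. Snord118 (135 bases, 45.9% G and C, chr11:69073427-69073561, plus strand) lies in no other gene, and its box D is in capitals, while the letters of box C were not in its first 20 bases.
Snora78: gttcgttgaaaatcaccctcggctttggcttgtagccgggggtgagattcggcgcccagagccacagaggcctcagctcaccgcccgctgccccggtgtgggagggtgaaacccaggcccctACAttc
Scarna3a: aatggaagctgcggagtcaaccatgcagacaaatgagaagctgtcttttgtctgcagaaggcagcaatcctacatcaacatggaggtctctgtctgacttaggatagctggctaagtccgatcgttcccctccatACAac
Snord118: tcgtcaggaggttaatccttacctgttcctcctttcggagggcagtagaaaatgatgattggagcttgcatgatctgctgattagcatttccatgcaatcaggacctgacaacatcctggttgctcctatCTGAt

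Across the 26 members, the digestion to pull-down difference had a Spearman rho of 0.400 with annotated length and -0.148 with G and C content, as a description over genes that share libraries. The 17 members of 120 to 149 bases had a median log2 difference of -3.82, and the 9 of 150 bases or longer -1.88. Several of the shorter ones passed the filter on low counts through pull-down, such as Snora5c with 1 count and Snora64 with 5 over the 9 digestion libraries, so the filter in part fixes this split. The 16 members that share an exon with another gene on the same strand had a median of -3.82, and the 10 that do not -2.12. Snora7a, Snora5c and Snora64 are among the 16, so the filter in part fixes this split as well. For the 16, reads of the member and of its host cannot be fully told apart in gene counts. Of 22 host genes, 14 were lower and 3 higher after digestion, with a median of -0.36, beside 36% of all genes lower and 34.7% higher. Rpl32, the host of Snora7a, was among the lower at -1.88 (adjusted p = 9.4e-27), and so was Cop1 at -0.16 (adjusted p = 0.019).

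Other parts of the same machinery had smaller median differences, beside backgrounds of 36% of all genes lower and 34.7% higher. The C/D core proteins Fbl, Nop56, Nop58 and Snu13 included 3 that were lower after digestion and none higher, with a median log2 difference of -0.41. The H/ACA core proteins Dkc1, Nop10, Nhp2 and Gar1 included 3 that were lower, such as Nop10 at -0.96, and 1 that was higher, Gar1 at 1.04 (adjusted p = 6.7e-06), with a median of -0.78. Of 15 assembly and Cajal body proteins, 9 were lower and 4 higher (median -0.50). Of the 6 other structured RNAs without a tail, 5 were lower (median -1.40), among them Rn7sk at -1.38 and the signal recognition particle RNA gene Rn7s1 at -1.76.

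**Figure D3:**
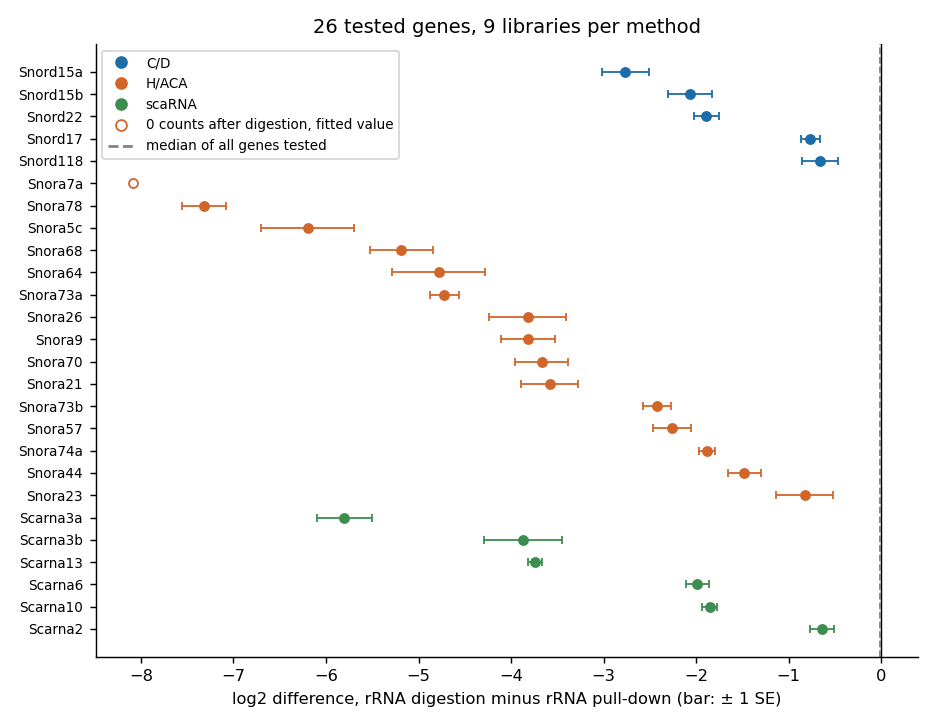
Log2 difference of digestion from pull-down (x axis, with 1 SE) for the 26 tested members, grouped by class and sorted. All points lie left of 0. Filled points run from -0.64 for Scarna2 to -7.32 for Snora78, and the open circle at -8.09 is the fitted value of Snora7a, which had 0 counts after digestion. The dashed line is the median of all genes tested, -0.01.

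Snora73a and Snora73b changed places between the methods. The transcripts have 205 bases each and sit next to each other on the minus strand (Snora73a at chr4:132352775-132352979, Snora73b at chr4:132352322-132352526, GRCm38). They differ at 7 positions (96.6% identity), given in capitals.
Snora73a: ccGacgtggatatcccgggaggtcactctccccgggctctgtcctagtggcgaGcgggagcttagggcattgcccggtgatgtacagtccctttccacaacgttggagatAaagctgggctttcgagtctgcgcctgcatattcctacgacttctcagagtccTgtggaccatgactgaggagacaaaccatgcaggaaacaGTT
Snora73b: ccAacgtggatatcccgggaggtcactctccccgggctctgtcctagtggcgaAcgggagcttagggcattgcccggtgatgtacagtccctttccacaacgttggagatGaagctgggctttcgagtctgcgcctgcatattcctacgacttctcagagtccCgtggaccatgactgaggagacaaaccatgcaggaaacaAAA

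The ratio of Snora73a to Snora73b counts was 0.624 ± 0.105 in unselected batch 2 (SD, n = 3) and 0.518 ± 0.0536 after digestion (n = 9). After pull-down it was 2.50 ± 0.710 (n = 9). In 8 pull-down libraries it was between 2.50 and 3.01, whereas the low-depth library held 75 and 111 counts, a ratio of 0.676. All 8 lay above every unselected and digestion library. Each gene was lower after digestion than after pull-down, Snora73a at 3.77% of the pull-down mean (log2 difference -4.72 ± 0.16, adjusted p = 1.5e-21) and Snora73b at 16.2% (-2.43 ± 0.15, adjusted p = 5.2e-15). With near-identical transcripts, how counts were divided between the copies is uncertain. Snora73a also overlaps an exon of another gene while Snora73b does not, and the part of that gene's reads was not tested. Counted as 1 gene, the pair was lower after digestion by a log2 difference of -3.64 ± 0.14 (adjusted p = 5.2e-20), and higher after pull-down than without selection by 1.9 ± 0.27 (adjusted p = 1.0e-06).

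Fragment length mattered after pull-down. Of 26 members, 20 were higher in long than in short fragments and 1, Snora7a, was lower, against backgrounds of 14.2% of 15202 genes higher and 15.1% lower, 29.3% in all (18 pull-down and digestion libraries in 1 edgeR fit, whose own normalised CPM scale is used from here to the ramp rates). The median log2 difference was 1.43 for C/D, 1.17 for H/ACA and 1.20 for scaRNA genes, against -0.01 for all genes. Snora73b was at 36.6, 34 and 39.6 normalised CPM with short fragments at slow, medium and fast ramp, and at 124.8, 104.6 and 95.6 with long ones, without overlap (1.5 ± 0.09, adjusted p = 2.0e-07). Scarna13 rose from 40.4, 45.0 and 40.5 to 65.2, 91.9 and 97.8 (1.12 ± 0.08, adjusted p = 8.9e-07). Snord15b, which guides methylation of the large subunit rRNA, was at 9.93, 8.47 and 8.68 with short fragments and at 168.6, 29.5 and 26.9 with long ones (2.22 ± 0.30, adjusted p = 0.00024). The value of 168.6 is the low-depth library, and without it the difference was 1.81 (adjusted p = 6.1e-09).

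Medium fragments resembled short ones in these examples. Snora73b was at 43.6, 35.8 and 46.1 normalised CPM with medium fragments and Scarna13 at 44.3, 43.3 and 44.3. As shares of all counts, H/ACA genes were at 0.0193%, 0.0179% and 0.0182% with short fragments (slow, medium and fast ramp). They were at 0.021%, 0.016% and 0.0185% with medium, and at 0.0215%, 0.0372% and 0.0328% with long fragments, where the lowest value is the low-depth library. In 12 of the 26 members the long library was above the short one at all 3 ramp rates, which was not counted over all genes. Leaving out the low-depth library gave 22 higher and 1 lower of 27 tested. Leaving out either of the other long libraries gave 14 higher (without the medium ramp) or 13 higher (without the fast ramp), and no member lower. rRNA genes with Lars2 held 22.7% to 24.5% of the counts of the long, and 14.2% to 15.5% of the short pull-down libraries. Of 8 markers of other cells, 5 were higher in long fragments and 1 lower (median 0.22). Of 8 hepatocyte markers, none was higher and 3 were lower (median -0.17), beside 14.2% of all genes higher and 15.1% lower. The part of the rRNA genes and of the markers in the result was not tested.

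After digestion the same contrast moved few members. Scarna13, Snord22 and Scarna10 were higher and Scarna2 and Snora57 lower in long fragments, 3 and 2 of 26, against backgrounds of 1.94% and 1.2%, 3.14% in all. Scarna2, the longest member at 414 bases, was at 22.8, 24.4 and 22.1 normalised CPM with short fragments and at 13.4, 13.5 and 12.5 with long ones (-0.82 ± 0.09, adjusted p = 0.00017), with no overlap. Scarna13 rose from 2.71, 3.57 and 3.29 to 6.19, 5.02 and 6.61 (0.90 ± 0.15, adjusted p = 0.0038). The call of Scarna2 held without any 1 of the 6 short and long libraries, whereas those of Snora57 and Scarna10 were lost without any of them. Without any 1 of the 6 libraries, the number of calls was 1 to 3 in place of 5. At the lowest number Scarna2 alone was called, so the calls of Scarna13 and Snord22 did not hold throughout either.

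The difference between the methods was tested itself. For 8 members the effect of long fragments was lower after digestion than after pull-down, and for none higher, against a background of 4.79% lower and 3.89% higher. Scarna2 rose after pull-down from 28.7, 24.4 and 20.3 to 51.7, 44 and 32.2 normalised CPM and fell after digestion, a difference of -1.52 ± 0.13 on the log2 scale (adjusted p = 5.0e-05). Among these 8, Snora23 had the largest difference, -2.37 ± 0.54 (adjusted p = 0.019), followed by Snora73b at -1.57 ± 0.15 (adjusted p = 8.3e-05). Snora57, Snora73a, Scarna6, Snord17 and Snora74a lay between -0.78 and -1.51. Without the low-depth library 12 of 27 members differed.

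**Figure D4:**
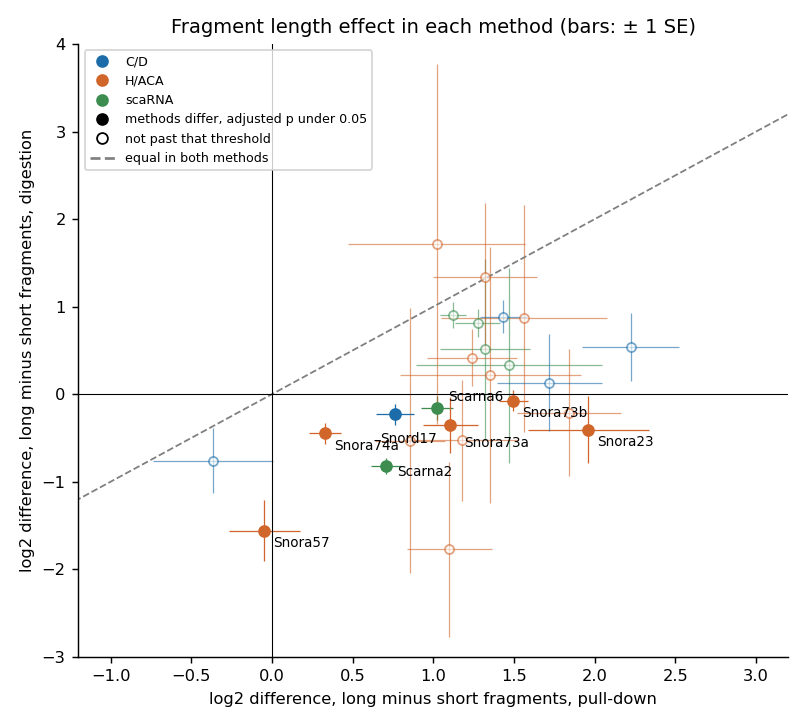
Log2 difference of long from short fragments after pull-down (x axis) and after digestion (y axis), with 1 SE, for 25 of the 26 tested members (Snora7a, with 0 counts after digestion, is left out). Filled points are the 8 members whose effect differed between the methods, all below the dashed line of equal effects.

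No member passed the threshold for the ramp rate of the PCR in the pull-down and digestion libraries, and the polyA libraries were not tested for it. At fast against slow ramp, averaged over pull-down and digestion, 0 of 26 members passed the edgeR threshold, against a background of 0.0132% of genes, and 4 had an unadjusted p under 0.05, among them Snora26 at -2.42 ± 0.87. Snora26 was at 0 in every fast-ramp digestion library, so its value rests on counts near the floor. DESeq2 called 0 as well. The median log2 difference was -0.20 over the members. Snord22 had the lowest adjusted p (0.92), at -0.42 ± 0.12.

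Heart and liver were compared in the unselected batch 1 libraries, with a single heart library that is assumed to vary as the 3 liver libraries do. In bulk RNA, fewer cells of a type and less RNA per cell cannot be told apart. Summed markers of other cells (8 genes) were at 1069 CPM outside rRNA genes in the heart library. They were at 545 to 581 in the liver libraries of batch 1, and their part in the results below was not tested. Of 11 members tested, 2 were higher in heart and 8 lower (edgeR quasi-likelihood test, adjusted p under 0.05), against backgrounds of 35.5% of 12828 genes higher and 34.1% lower, 69.6% in all, so calls were common among all genes. Scarna10 was at 10.3 normalised CPM in heart and at 4.17, 4.01 and 3.87 in liver (scaling of these 4 libraries), a log2 difference of 1.35 ± 0.12 (adjusted p = 5.9e-09). Snora74a was at 3.25 in heart and at 1.58, 1.92 and 1.5 in liver (0.97 ± 0.22, adjusted p = 0.00052). Ncapd2, a condensin subunit gene that hosts Scarna10, was also higher in heart, at 1.89 (adjusted p = 1.1e-05), and the part of its reads in the Scarna10 counts was not tested.

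Among the lower members, Snord15b had 13 counts and 0.444 normalised CPM in heart, against 1.83, 2.47 and 1.81 in liver (-2.18 ± 0.36, adjusted p = 1.9e-05). Its host Rps3 was at -0.28 (adjusted p = 0.0014). Snora73b was at 2.46 in heart against 5.74, 6.81 and 5.78 in liver (-1.31 ± 0.18, adjusted p = 1.5e-06), and Snora73a was lower by a log2 difference of -1.05 ± 0.20. The heart value lay below all 3 liver values for both copies, and their count ratio in heart was 0.833. Scarna2 was not called (0.14 ± 0.17, adjusted p = 0.49).

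With library totals, where the median gene was 0.54 higher in heart and 74% of genes were called, 3 members were higher and 3 lower, and Snord17 turned from -0.33 to 0.19. DESeq2 called 2 higher and 3 lower. In share of all counts, scaRNA genes were at 0.00251% in heart and 0.00134% ± 0.000104 in liver batch 1 (SD, n = 3), C/D genes at 0.00092% and 0.000982% ± 6.03e-05, and H/ACA genes at 0.00113% and 0.00132% ± 0.000102. Scarna10 alone held 300 of the 560 scaRNA counts of the heart library.

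**Figure D5:**
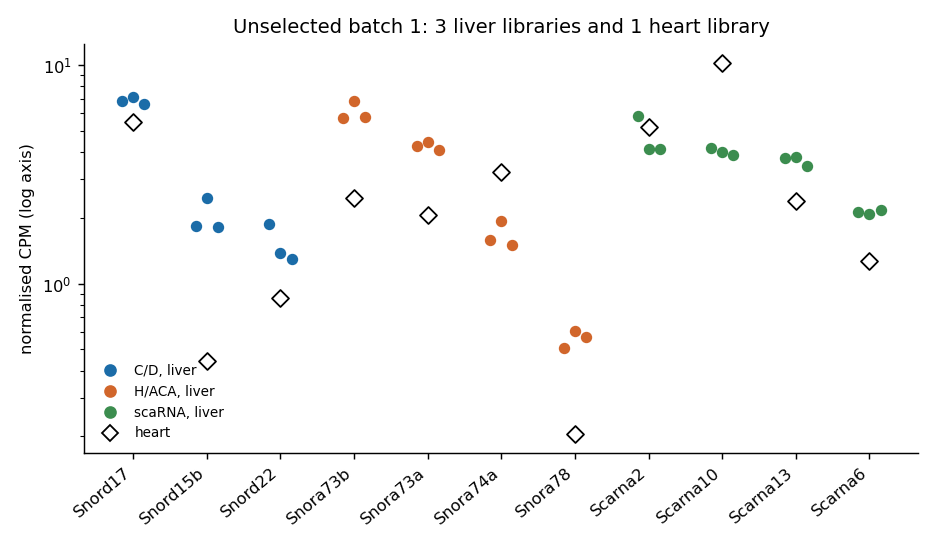
Normalised CPM (y axis, log) of the 11 tested members in the 3 unselected liver libraries of batch 1 (filled circles, coloured by class) and the 1 heart library (open diamonds). The heart value lies above all liver values for Scarna10 and Snora74a, within them for Scarna2 and below them for the other 8.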

How the data were processed

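RNA from the liver and heart of 1 mouse was sequenced in 34 libraries. The values are expected counts per gene that the authors deposited, made with Salmon 1.9.0, UMI-tools 1.1.1, R 4.4.0 and GRCm38 among the tools and builds named, per the submitters' processing notes, which give no roles. Settings and treatment of short transcripts are not given in the sources used here.

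Expected counts were rounded. Symbols, lengths and sequences came from GENCODE M21 (50896 of 51368 genes matched). Members and lists were chosen with earlier results of these data known. R 4.3.3 with edgeR 4.0.16 (filterByExpr, trimmed mean of M-values, quasi-likelihood test) was used, with limma 3.58.1 installed as its dependency. P-values were Benjamini-Hochberg adjusted over all genes tested, threshold 0.05, and SE is the log2 difference divided by the square root of F. Method comparisons used the 33 liver libraries, adjusted for length of fragments and ramp rate. Fragment length and ramp rate used the 18 pull-down and digestion libraries, tissue 4 and batch 6 unselected libraries. DESeq2 1.42.0, library totals, rRNA-free scaling, other filters and left-out libraries were alternatives, and removing the low-depth pair or summing Snora73a and Snora73b was chosen after seeing the data. Scripts were tested on simulated data.

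Named genes were the 6 Snord, 6 Snora and 3 Scarna genes highest per kilobase in unselected liver, and the 2 largest rises and 2 largest falls per comparison with a mean of at least 10 counts. Listed genes and members of small groups were added, the latter chosen after their values were seen. Limits on 0 counts (3 counts) cover counting error only.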

Additional observations from a re-analysis of the deposited data

Results flagged for a closer look

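Of 37 sets of values, each a class share or 1 gene within a preparation, 6 held a library far from the others. Chance gives about 1 in 20 for a single set, and these sets share libraries and so are not independent. In 5 of the 6 it was the pull-down library of 1.13 M counts (slow ramp, long fragments). Its C/D share was 0.0194% of counts, against 0.00276% to 0.00646% in the other 8. Snord15b was at 122.6 normalised CPM there, Snord22 at 23.7, Snord15a at 12.3 and Snora57 at 2.45, the last from 3 counts, the floor used for a count of 0. The last was polyA selection, where the H/ACA share was highest, at 8.95e-05%, at slow ramp with long fragments.

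For 8 members the effect of long against short fragments differed between digestion and pull-down by a test of the difference itself (edgeR interaction term, log2). The differences were -2.37 for Snora23, -1.57 for Snora73b, -1.52 for Scarna2, -1.51 for Snora57, -1.45 for Snora73a, -1.18 for Scarna6, -0.99 for Snord17 and -0.78 for Snora74a.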

How the results depend on the processing

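Single preparations of 1 animal's RNA, 1 heart library and 1 pull-down library of 1.13 M counts limit these results. With library totals, 26 members were called for pull-down against unselected and 6 for heart against liver, where DESeq2 called 5. Only 17 members remained testable at a mean of 10 counts, and all 17 were lower after digestion than after pull-down. Some of the 17, such as Snora68 and Snora78, reach that mean through pull-down, so this is no separate check. The scaRNA ratio was 1.44 for members in no exon of another gene. Under library totals, digestion against unselected reversed, among the named genes recomputed, for Snord22 (1.27), Snora73b (1.20), Snora73a (0.83), Snora57 (0.59) and Scarna13 (0.14), and heart against liver for Snord17 (0.19), where the median of all genes shifts by 2.85 and 0.54. Snora7a after polyA selection ranged from -5.81 to 0.0745 (reversed) when 1 unselected batch 1 library was left out, the latter without library 2, which holds its 2 counts. Leaving out single libraries gave 9 to 10 and 6 to 9 calls for digestion and pull-down against unselected, 24 to 26 for polyA, 7 to 8 for heart, 13 to 23 for long fragments after pull-down and 1 to 3 after digestion. It gave 1 for batch. Without the low-depth library, the only one left out there, 26 members were called for digestion against pull-down, 12 for the difference between methods and 0 for ramp rate. With the replicate block, the batch comparison gave 1 call as without it. Same-numbered libraries correlated at 0.000894, -0.0483 and -0.0706, so the numbers share only a name. For single genes, 675 values kept direction and call, 69 lost the call and 7 reversed. The causes were not tested.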
